A study of Homo sapiens with 38 samples.

Results

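The 7 human genes of the CDK inhibitor families CIP/KIP (CDKN1A, CDKN1B and CDKN1C) and INK4 (CDKN2A, CDKN2B, CDKN2C and CDKN2D) were followed in 6 established cell lines of diffuse large B-cell lymphoma, a cancer of mature B cells. The genes were chosen by family and not by their values. All 7 were found by their Ensembl identifiers among the 18011 genes of the deposited count table. The RNA sequencing compared cells treated with the histone deacetylase inhibitor pracinostat, with the histone deacetylase inhibitor vorinostat or with the solvent DMSO alone, for 6 h or 14 days. At 6 h there were 6 pracinostat libraries, 5 vorinostat libraries and 6 DMSO libraries, from OCILY1, PFEIFFER, SUDHL4, TOLEDO and WSUDLCL2, plus SUDHL6 with pracinostat and DMSO. At 14 days the first 5 of these lines each gave 1 library with pracinostat, 1 with a solvent labelled DMSOP, 1 with vorinostat and 1 with a solvent labelled DMSOV. Pracinostat was set against DMSOP and vorinostat against DMSOV, which is a reading of the letters in the titles. The sources used here give neither the drug doses nor any word on whether a line was grown in separate cultures for its libraries. With a single library for each line under a given treatment at a given time, the line served as the replicate.

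Cyclin-dependent kinases (CDKs) drive the cell cycle when bound to a cyclin, and the 7 proteins are their natural brakes. INK4 proteins (p16INK4a from CDKN2A, p15INK4b from CDKN2B, p18INK4c from CDKN2C and p19INK4d from CDKN2D) bind CDK4 and CDK6 and keep them from the D cyclins, so that the retinoblastoma protein stays unphosphorylated and holds E2F factors back. CIP/KIP proteins (p21 from CDKN1A, p27 from CDKN1B and p57 from CDKN1C) bind cyclin-CDK complexes, above all those of CDK2. CDKN1A is a textbook responder to histone deacetylase inhibitors, CDKN1B is held back largely through protein degradation, CDKN1C is an imprinted gene, and CDKN2A and CDKN2B lie side by side in a region of chromosome 9 that is often deleted in lymphoma.

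Of the 7 genes, CDKN1A, CDKN2B and CDKN2D rose most at 6 h with both drugs, and their promoter windows are shown for that reason. The windows come from RefSeq (GRCh38.p14) and hold 250 bases before and 50 after an annotated start, 5′ to 3′ on the gene's strand. Capitals mark GC boxes (GGGCGG, or CCGCCC on the other strand), the letters to which factors of the Sp1 family bind.
CDKN1A, chr6:36678464-36678763, plus strand: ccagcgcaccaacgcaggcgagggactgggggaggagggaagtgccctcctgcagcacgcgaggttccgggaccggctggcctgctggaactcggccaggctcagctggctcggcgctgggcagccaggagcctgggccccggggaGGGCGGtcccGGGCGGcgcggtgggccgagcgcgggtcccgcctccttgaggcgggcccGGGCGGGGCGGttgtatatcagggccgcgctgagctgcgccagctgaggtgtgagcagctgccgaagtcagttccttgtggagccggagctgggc
CDKN2B, chr9:22009256-22009555, minus strand: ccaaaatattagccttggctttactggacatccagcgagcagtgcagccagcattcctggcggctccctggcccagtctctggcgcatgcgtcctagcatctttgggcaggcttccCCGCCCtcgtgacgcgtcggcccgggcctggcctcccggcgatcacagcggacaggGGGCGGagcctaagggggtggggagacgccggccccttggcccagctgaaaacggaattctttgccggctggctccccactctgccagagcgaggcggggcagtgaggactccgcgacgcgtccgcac
CDKN2D, chr19:10568930-10569229, minus strand: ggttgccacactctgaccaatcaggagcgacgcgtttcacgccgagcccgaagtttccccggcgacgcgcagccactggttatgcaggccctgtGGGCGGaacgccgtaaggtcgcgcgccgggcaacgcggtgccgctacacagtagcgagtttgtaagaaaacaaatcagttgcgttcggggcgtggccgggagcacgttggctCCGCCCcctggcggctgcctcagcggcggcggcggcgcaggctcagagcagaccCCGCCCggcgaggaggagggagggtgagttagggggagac
The CDKN1A window held 4 GC boxes, of which the last pair overlap by 1 base, the CDKN2B window held 2 and the CDKN2D window held 3. At least 1 GC box was present in 45% of the 35116 RefSeq windows of this length, and 3 or more in 15.8%. RefSeq windows were found for 6 of the 7 genes, 9 windows in all. CDKN1B had 1 GC box, the CDKN2A windows had 0 and 2, and the 3 CDKN2C windows had 0, 6 and 1. GC boxes were thus present in windows of genes that rose strongly, of CDKN2C, which rose little, and of CDKN2A, which was not called.

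Before any drug effect, the 7 genes differed widely in level in the solvent. Levels between genes are compared as RPKM, reads per kilobase of GENCODE 29 exons, scaled to library size, averaged over the DMSO libraries of a line. CDKN2C, the INK4 gene known to hold back cycling in germinal centre B cells and plasma cells, had the highest median over the 6 lines, 23.6 RPKM, with a range from 6.84 RPKM in PFEIFFER to 40.2 RPKM in OCILY1. CDKN1B followed with a median of 10.7 RPKM, between 4.55 RPKM in SUDHL4 and 32.8 RPKM in TOLEDO. CDKN2D had a median of 7.08 RPKM and the widest relative spread, 11.7-fold between PFEIFFER at 1.33 RPKM and TOLEDO at 15.6 RPKM. These 3 genes overlapped in their ranges over the lines, so their order did not hold in every line. CDKN2A had a median of 6.94 RPKM, from 4.42 RPKM in TOLEDO to 17.8 RPKM in OCILY1, and CDKN1A a median of 3.61 RPKM, from 2.34 RPKM in PFEIFFER to 8.44 RPKM in SUDHL6. CDKN2B was far lower, with a median of 0.289 RPKM and a range of 0.216 to 0.681 RPKM that did not meet that of CDKN1A. CDKN2A, CDKN2B and their neighbour MTAP, which is often lost with them, all had reads in every solvent library, and MTAP reached 3.41 to 4.99 RPKM as line means.

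**Figure D1:**
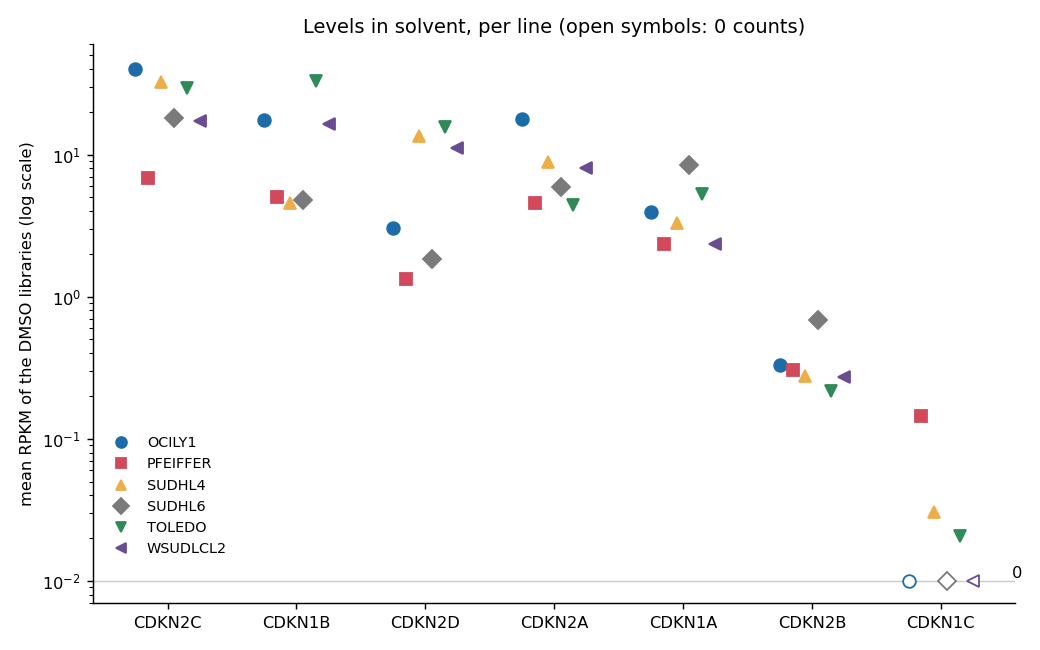
Mean RPKM of the DMSO libraries of each line (log scale) for the 7 genes, ordered by their median over the 6 lines; OCILY1, PFEIFFER, SUDHL4, TOLEDO and WSUDLCL2 are means of 3 solvent libraries and SUDHL6 is 1 library. CDKN2C lies highest with a median of 23.6 RPKM, CDKN2B at 0.289 RPKM, and CDKN1C has 0 counts in the solvent libraries of 3 lines (open symbols).

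CDKN1C (ENSG00000129757, chromosome 11, 2883213 to 2885773, minus strand) was the gene that lacked expression. Every solvent library of all 6 lines was under 1 CPM (CPM are counts per mega count, M, of the TMM-adjusted library total), and 11 of the 16 solvent libraries held 0 counts. SUDHL6 and WSUDLCL2 had 0 counts in every library, and OCILY1, SUDHL4 and TOLEDO had at most 2. For a count of 0 the 95% Poisson interval reaches 3.69 counts, for counting error only. PFEIFFER was the exception, with counts in all 7 of its libraries. There CDKN1C had 16 counts with pracinostat and 5 with vorinostat at 6 h, against 1 with DMSO. At 14 days PFEIFFER had 15 counts with pracinostat against 2 with DMSOP, and 9 with vorinostat against 5 with DMSOV. Both drugs were thus above their solvent in this line, by few counts. For vorinostat the 95% Poisson intervals overlapped those of its solvent. They were 1.62 to 11.7 against 0.0253 to 5.57 counts at 6 h, and 4.12 to 17.1 against 1.62 to 11.7 at 14 days. For pracinostat they did not overlap (9.15 to 26.0 against 0.0253 to 5.57, and 8.40 to 24.7 against 0.242 to 7.22). CDKN1C was below the count filter of the tests in every comparison. PFEIFFER also stood apart in CD8A, a T-cell gene, at 499 to 1210 CPM, and in EPCAM, an epithelial gene, at 85.0 to 270 CPM, where no library of the other lines passed 8.07 and 9.86 CPM. Their part in the CDKN1C counts was not tested.

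At 6 h both drugs raised 5 of the 6 tested genes. CDKN2B rose most, followed by CDKN1A and CDKN2D, then CDKN1B and CDKN2C with changes under 2-fold, and CDKN2A was not called with either drug. These 5 of 6 stand beside 40.1% of 13177 genes called with pracinostat and 43.9% with vorinostat, and beside 21.2% and 23.1% that were called and higher. The median log2 fold change over the 6 genes was 1.12 with pracinostat and 1.12 with vorinostat, against 0.03 and 0.02 over all genes tested. CDKN2B passed the count filter through the drug groups. It is among the 5 and in the medians, but adds no support to them. Both drugs were set against the same DMSO libraries at 6 h, so their results share those controls. Fold changes are from edgeR's quasi-likelihood test with the line as block, and a gene was called at a Benjamini-Hochberg adjusted p under 0.05 over all genes tested. Without the line as block, CDKN1A and CDKN2B were the 2 genes called with each drug. In these bulk samples a change in the number of cells expressing a gene and a change in its RNA per cell cannot be told apart.

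CDKN1A (ENSG00000124762, chromosome 6, 36676460 to 36687339, plus strand) encodes p21, the broad inhibitor of CDK2 complexes. With pracinostat at 6 h it had 90.1 CPM in OCILY1, 30.8 in PFEIFFER, 20.0 in SUDHL4, 96.0 in SUDHL6, 73.7 in TOLEDO and 42.9 in WSUDLCL2. With vorinostat it had 119 CPM in OCILY1, 26.8 in PFEIFFER, 13.7 in SUDHL4, 104 in TOLEDO and 50.3 in WSUDLCL2. With DMSO it had 14.8 CPM in OCILY1, 9.05 in PFEIFFER, 12.0 in SUDHL4, 25.8 in SUDHL6, 10.1 in TOLEDO and 8.10 in WSUDLCL2. Every drug library was above the solvent library of its own line, but the groups overlapped, since SUDHL4 with either drug was below SUDHL6 with DMSO. The log2 fold change was 2.06 with pracinostat (SE 0.28, adjusted p = 6.87e-05, higher in 6 of 6 lines) and 2.22 with vorinostat (SE 0.30, adjusted p = 4.57e-05, higher in 5 of 5 lines). SUDHL4 responded least, with a log2 difference of 0.72 with pracinostat and 0.18 with vorinostat, and TOLEDO most, with 2.83 and 3.33.

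CDKN1B (ENSG00000111276, chromosome 12, 12715058 to 12722371, plus strand) encodes p27, the inhibitor that marks resting cells. With pracinostat at 6 h it had 42.7 CPM in OCILY1, 25.8 in PFEIFFER, 13.2 in SUDHL4, 20.6 in SUDHL6, 78.7 in TOLEDO and 39.5 in WSUDLCL2. With vorinostat it had 46.4 CPM in OCILY1, 22.0 in PFEIFFER, 16.5 in SUDHL4, 72.4 in TOLEDO and 28.8 in WSUDLCL2. With DMSO it had 30.5 CPM in OCILY1, 10.7 in PFEIFFER, 3.80 in SUDHL4, 13.5 in SUDHL6, 82.2 in TOLEDO and 17.9 in WSUDLCL2. Lines differed more than treatments did, and TOLEDO, the line with the highest level, was lower with pracinostat by 0.06 and with vorinostat by 0.18 on the log2 scale than with DMSO. CDKN1B had a log2 fold change of 0.72 with pracinostat (SE 0.20, adjusted p = 0.00912, higher in 5 of 6 lines) and 0.65 with vorinostat (SE 0.21, adjusted p = 0.0211, higher in 4 of 5 lines). The SUDHL4 solvent library, 1 of 3 libraries under 4 M counts, rested on 12 counts of CDKN1B. The vorinostat call was lost without OCILY1 (adjusted p = 0.0589), PFEIFFER (0.0628), SUDHL4 (0.0778) or WSUDLCL2 (0.0527).

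CDKN2A (ENSG00000147889, chromosome 9, 21967753 to 21995301, minus strand) encodes p16INK4a and, from another reading frame, p14ARF, and a count per gene cannot separate these products. With pracinostat at 6 h it ran from 14.7 CPM in TOLEDO to 71.5 CPM in OCILY1 with a median of 26.0 CPM, and with vorinostat it had 67.4 CPM in OCILY1, 20.3 in PFEIFFER, 23.9 in SUDHL4, 21.0 in TOLEDO and 19.6 in WSUDLCL2. With DMSO it ran from 15.1 CPM in PFEIFFER to 66.9 CPM in OCILY1 with a median of 22.6 CPM. OCILY1 was the high line under every treatment, and the groups overlapped over nearly their whole range. CDKN2A had a log2 fold change of 0.20 with pracinostat (SE 0.14, adjusted p = 0.276, higher in 4 of 6 lines) and 0.13 with vorinostat (SE 0.15, adjusted p = 0.497, higher in 4 of 5 lines).

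CDKN2B (ENSG00000147883, chromosome 9, 22002903 to 22009363, minus strand) encodes p15INK4b, known as an effector of growth arrest by TGF-beta. With pracinostat at 6 h it had 11.3 CPM in OCILY1, 2.89 in PFEIFFER, 7.84 in SUDHL4, 12.1 in SUDHL6, 5.81 in TOLEDO and 6.58 in WSUDLCL2. With vorinostat it had 14.9 CPM in OCILY1, 4.22 in PFEIFFER, 7.96 in SUDHL4, 7.62 in TOLEDO and 7.12 in WSUDLCL2. With DMSO it had 0.668 CPM in OCILY1, 0.549 in PFEIFFER, 0.634 in SUDHL4, 2.76 in SUDHL6, 0.613 in TOLEDO and 0.419 in WSUDLCL2. Neither drug group overlapped with the DMSO group, although PFEIFFER with pracinostat lay just above SUDHL6 with DMSO. SUDHL6 with DMSO held 25 counts of CDKN2B, and the other DMSO libraries at 6 h held 2 to 5. CDKN2B thus passed the count filter through the drug groups, and the size of its folds rests on few solvent counts. CDKN2B had a log2 fold change of 3.06 with pracinostat (SE 0.28, adjusted p = 1.86e-06, higher in 6 of 6 lines) and 3.43 with vorinostat (SE 0.30, adjusted p = 7.68e-07, higher in 5 of 5 lines). PFEIFFER responded least, with log2 differences of 1.90 and 2.40, and OCILY1 most, with 3.57 and 3.96. CDKN2B lies within the antisense gene CDKN2B-AS1 and CDKN2A overlaps one end of it. The strand setting of the counting is not given, so reads of the overlapping genes cannot be told apart. CDKN2B-AS1 averaged 0.963 ± 0.503 CPM with pracinostat (SD, n = 6) and 1.04 ± 0.772 CPM with vorinostat (SD, n = 5), against 1.96 ± 1.86 CPM with DMSO (SD, n = 6), and was lower with pracinostat in 5 of 6 lines and with vorinostat in 3 of 5. It was below the count filter at 6 h. CDKN2A and CDKN2B share at least 13 words of 50 bases in their exons. The words were taken at every position and may overlap, so they are not 13 separate stretches. The search covered only part of each sequence, so the full extent of shared sequence is not known.

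CDKN2C (ENSG00000123080, chromosome 1, 50960745 to 50974633, plus strand) encodes p18INK4c. With pracinostat at 6 h it had 100 CPM in OCILY1, 37.6 in PFEIFFER, 94.2 in SUDHL4, 105 in SUDHL6, 87.9 in TOLEDO and 72.1 in WSUDLCL2. With vorinostat it had 111 CPM in OCILY1, 47.6 in PFEIFFER, 94.9 in SUDHL4, 113 in TOLEDO and 53.3 in WSUDLCL2. With DMSO it had 103 CPM in OCILY1, 19.2 in PFEIFFER, 71.3 in SUDHL4, 59.8 in SUDHL6, 97.6 in TOLEDO and 41.8 in WSUDLCL2. PFEIFFER, the lowest line with each drug and with the solvent, had the highest log2 differences, 0.96 and 1.30, while OCILY1 and TOLEDO with pracinostat were slightly under their solvent libraries. For CDKN2C the log2 fold change was 0.43 with pracinostat (SE 0.15, adjusted p = 0.0357, higher in 4 of 6 lines) and 0.46 with vorinostat (SE 0.16, adjusted p = 0.0290, higher in 5 of 5 lines). The pracinostat call was lost without PFEIFFER (adjusted p = 0.0607), SUDHL4 (0.0773), SUDHL6 (0.123) or WSUDLCL2 (0.114), and the vorinostat call without PFEIFFER (0.119), SUDHL4 (0.0663) or SUDHL6 (0.0516). Without the 3 libraries under 4 M counts, a choice made after the data had been seen, the pracinostat value was 0.44 (adjusted p = 0.0523).

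CDKN2D (ENSG00000129355, chromosome 19, 10566462 to 10569059, minus strand) encodes p19INK4d. With pracinostat at 6 h it had 19.9 CPM in OCILY1, 11.4 in PFEIFFER, 38.9 in SUDHL4, 11.4 in SUDHL6, 36.1 in TOLEDO and 32.0 in WSUDLCL2. With vorinostat it had 23.8 CPM in OCILY1, 12.4 in PFEIFFER, 39.0 in SUDHL4, 39.0 in TOLEDO and 33.6 in WSUDLCL2. With DMSO it had 3.47 CPM in OCILY1, 2.19 in PFEIFFER, 18.4 in SUDHL4, 2.76 in SUDHL6, 21.3 in TOLEDO and 12.8 in WSUDLCL2. The groups overlapped because the lines started far apart, but each drug library was above its own solvent library. For CDKN2D the log2 fold change was 1.52 with pracinostat (SE 0.22, adjusted p = 8.40e-05, higher in 6 of 6 lines) and 1.60 with vorinostat (SE 0.23, adjusted p = 5.87e-05, higher in 5 of 5 lines). OCILY1 had the highest log2 differences, 2.41 and 2.67, and TOLEDO, which had the highest solvent level, the lowest, 0.75 and 0.86.

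**Figure D2:**
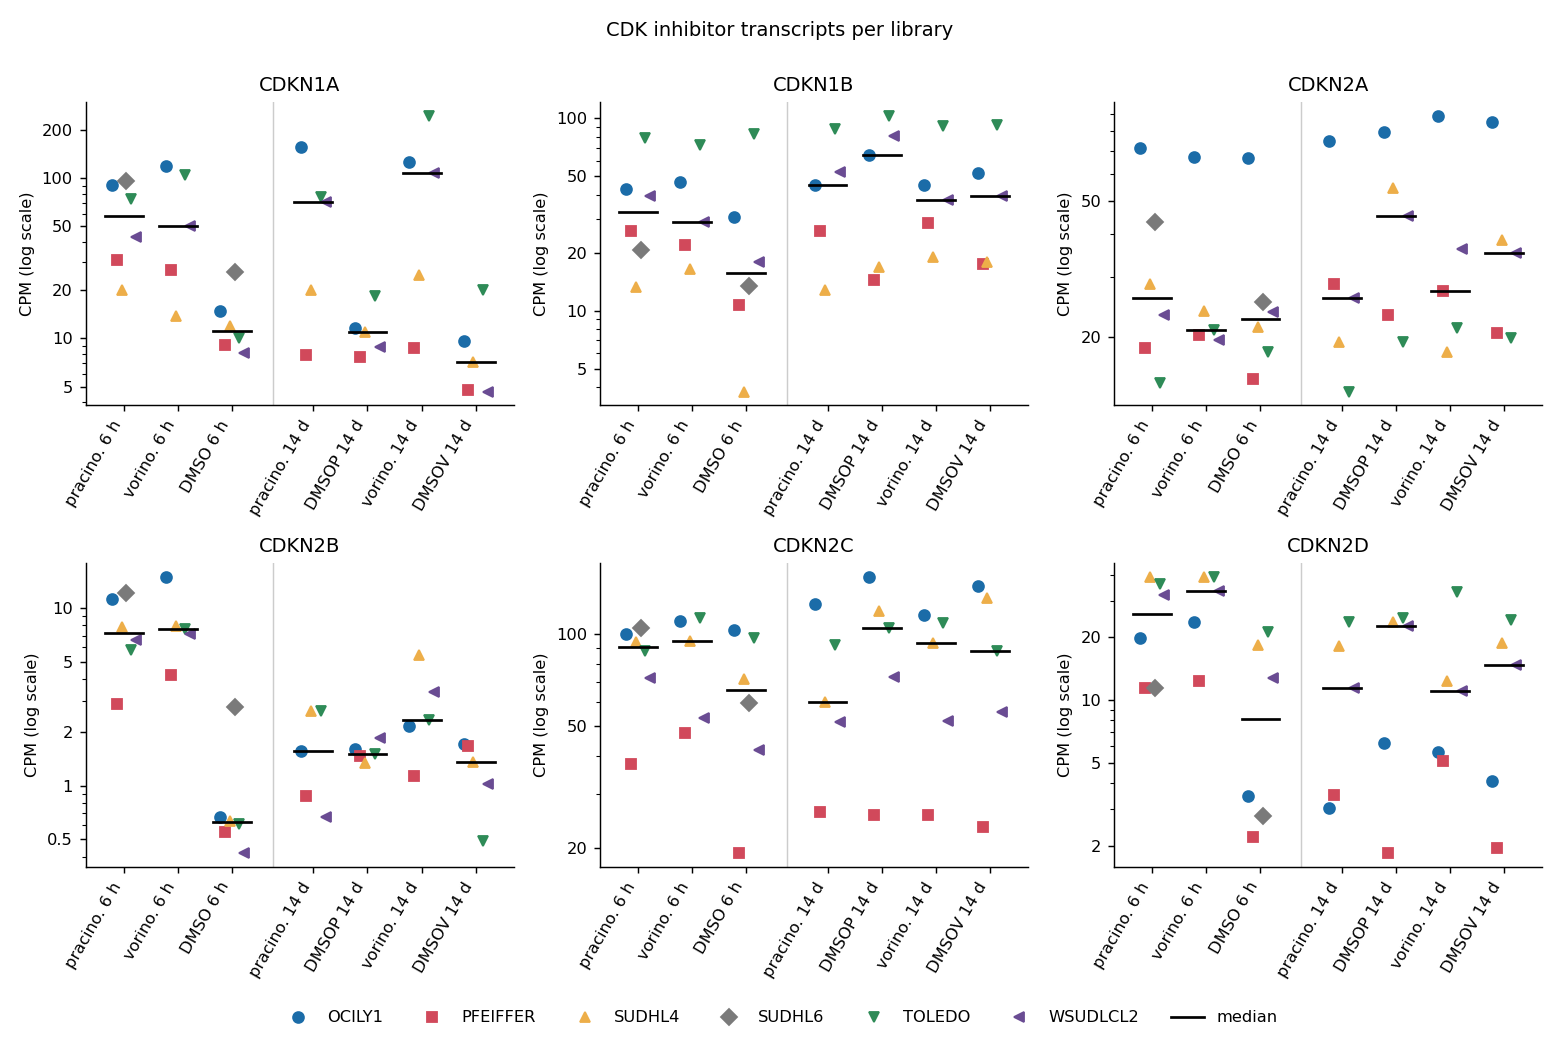
CPM (log scale) of the 6 tested genes in every library, by treatment and time, with 1 symbol per cell line and a black line at the group median. At 6 h the drug libraries of CDKN2B (2.89 to 14.9 CPM) all lie above those of DMSO (0.419 to 2.76 CPM), while at 14 days CDKN1A is the gene whose drug medians (70.6 and 108 CPM) stand clear of the solvent medians (11.0 and 7.07 CPM).

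The 2 drugs were also set against each other in the lines that had both. At 6 h none of the 6 genes was called between pracinostat and vorinostat, beside 0.0152% of all genes. CDKN2B had a log2 difference of -0.37 (95% interval -0.86 to 0.12) and was lower with pracinostat in 5 of 5 lines. CDKN1A had -0.17 (-0.75 to 0.42), CDKN1B 0.07 (-0.37 to 0.51), CDKN2A 0.07 (-0.25 to 0.39), CDKN2C -0.04 (-0.38 to 0.31) and CDKN2D -0.08 (-0.55 to 0.40). At 14 days the drug effects, each against its own solvent, differed by -1.05 for CDKN1A (-2.59 to 0.50), -1.04 for CDKN2B (-2.33 to 0.26) and -0.67 for CDKN2D (-1.51 to 0.17), and by -0.29 to -0.47 for CDKN1B, CDKN2A and CDKN2C. None was called with edgeR, beside 0% of 14037 genes, and these wide intervals leave room for differences of more than 2-fold. The difference between the solvents enters these values. DMSOP lay above DMSOV for each of the 6 genes, by 0.13 for CDKN2C to 0.51 for CDKN1A on the log2 scale, none of them called. In both drug comparisons 0 of the 6 genes had an unadjusted p under 0.05, and DESeq2 and limma on the deposited values called 0. The 6 genes made 12 tests between the drugs, and the doses are unknown, so the values describe these cultures and not the compounds at matched strength.

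At 14 days CDKN1A was the 1 gene of 6 that was called with each drug. This stands beside 22.6% of 14037 genes called with pracinostat and 37.6% with vorinostat, and beside 12.3% and 20.4% that were called and higher. The count of 1 in 6 is thus no more than the share called over all genes. The median log2 fold change over the 6 genes was -0.28 with pracinostat and 0.23 with vorinostat, against 0.07 and 0.12 over all genes tested.

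With pracinostat at 14 days CDKN1A had 156 CPM in OCILY1, 7.89 in PFEIFFER, 20.0 in SUDHL4, 76.3 in TOLEDO and 70.6 in WSUDLCL2, against 11.6, 7.61, 11.0, 18.4 and 8.80 CPM with DMSOP in the same lines. Vorinostat libraries had 126 CPM in OCILY1, 8.68 in PFEIFFER, 24.9 in SUDHL4, 246 in TOLEDO and 108 in WSUDLCL2, against 9.57, 4.74, 7.07, 19.9 and 4.65 CPM with DMSOV. OCILY1, TOLEDO and WSUDLCL2 were high with both drugs, and PFEIFFER with pracinostat lay at its solvent level. SUDHL4 was above its solvents by a log2 difference of 0.84 with pracinostat and 1.77 with vorinostat. Its vorinostat library was small, with 73 counts of CDKN1A in 3.19 M counts. The log2 fold change was 2.08 with pracinostat (SE 0.53, adjusted p = 0.0126, higher in 5 of 5 lines) and 3.13 with vorinostat (SE 0.55, adjusted p = 5.73e-04, higher in 5 of 5 lines). Within lines the log2 difference ran from 0.05 in PFEIFFER to 3.72 in OCILY1 with pracinostat, and from 0.83 in PFEIFFER to 4.45 in WSUDLCL2 with vorinostat. The pracinostat call was lost without OCILY1 (log2 fold change 1.55, adjusted p = 0.0884) or WSUDLCL2 (1.81, adjusted p = 0.0558), and without the line as block (adjusted p = 0.199).

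None of the INK4 genes that had risen at 6 h passed the test at 14 days. CDKN2B had 1.58 CPM in OCILY1, 0.877 in PFEIFFER, 2.62 in SUDHL4, 2.65 in TOLEDO and 0.668 in WSUDLCL2 with pracinostat, against 1.62, 1.47, 1.35, 1.52 and 1.85 CPM with DMSOP. Vorinostat libraries had 2.16 CPM in OCILY1, 1.14 in PFEIFFER, 5.46 in SUDHL4, 2.35 in TOLEDO and 3.38 in WSUDLCL2, against 1.73, 1.67, 1.37, 0.490 and 1.02 CPM with DMSOV. Pracinostat was above the solvent in 2 of 5 lines and vorinostat in 4 of 5, with PFEIFFER the line below it. The log2 fold change was 0.04 with pracinostat (SE 0.43, adjusted p = 0.956) and 1.08 with vorinostat (SE 0.44, adjusted p = 0.0659), and without PFEIFFER the vorinostat value was 1.51 (adjusted p = 0.0297). CDKN2D had 3.04 CPM in OCILY1, 3.51 in PFEIFFER, 18.1 in SUDHL4, 23.7 in TOLEDO and 11.4 in WSUDLCL2 with pracinostat, against 6.22, 1.84, 23.8, 24.9 and 22.6 CPM with DMSOP. Vorinostat libraries had 5.64 CPM in OCILY1, 5.12 in PFEIFFER, 12.3 in SUDHL4, 33.2 in TOLEDO and 11.1 in WSUDLCL2, against 4.08, 1.95, 18.9, 24.3 and 14.7 CPM with DMSOV. PFEIFFER alone was above its solvent with pracinostat, and with vorinostat 3 of 5 lines were. The log2 fold change of CDKN2D was -0.36 with pracinostat (SE 0.28, adjusted p = 0.374) and 0.31 with vorinostat (SE 0.29, adjusted p = 0.408).

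The other 3 tested genes did not pass the test at 14 days. CDKN2A averaged 32.6 ± 24.4 CPM with pracinostat against 44.4 ± 24.6 CPM with DMSOP, and 38.4 ± 29.1 CPM with vorinostat against 39.9 ± 26.6 CPM with DMSOV (SD, n = 5 each), with log2 fold changes of -0.48 (SE 0.22, adjusted p = 0.114) and -0.02 (SE 0.22, adjusted p = 0.957). In SUDHL4 the CDKN2A level was 19.4 CPM with pracinostat against 54.7 CPM with DMSOP and 18.1 CPM with vorinostat against 38.5 CPM with DMSOV, the lowest log2 differences of the 5 lines with each drug, -1.48 and -1.08. CDKN1B averaged 44.8 ± 28.5 CPM with pracinostat against 55.8 ± 39.1 CPM with DMSOP, and 44.2 ± 27.9 CPM with vorinostat against 43.7 ± 30.6 CPM with DMSOV (SD, n = 5 each), with log2 fold changes of -0.20 (SE 0.22, adjusted p = 0.520) and 0.16 (SE 0.22, adjusted p = 0.587). PFEIFFER was the line with the highest log2 difference of CDKN1B with each drug, 0.83 and 0.70. CDKN2C averaged 71.2 ± 38.8 CPM with pracinostat against 95.3 ± 48.8 CPM with DMSOP, and 79.3 ± 38.9 CPM with vorinostat against 88.7 ± 50.6 CPM with DMSOV (SD, n = 5 each), with log2 fold changes of -0.35 (SE 0.15, adjusted p = 0.101) and -0.06 (SE 0.15, adjusted p = 0.783).

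**Figure D3:**
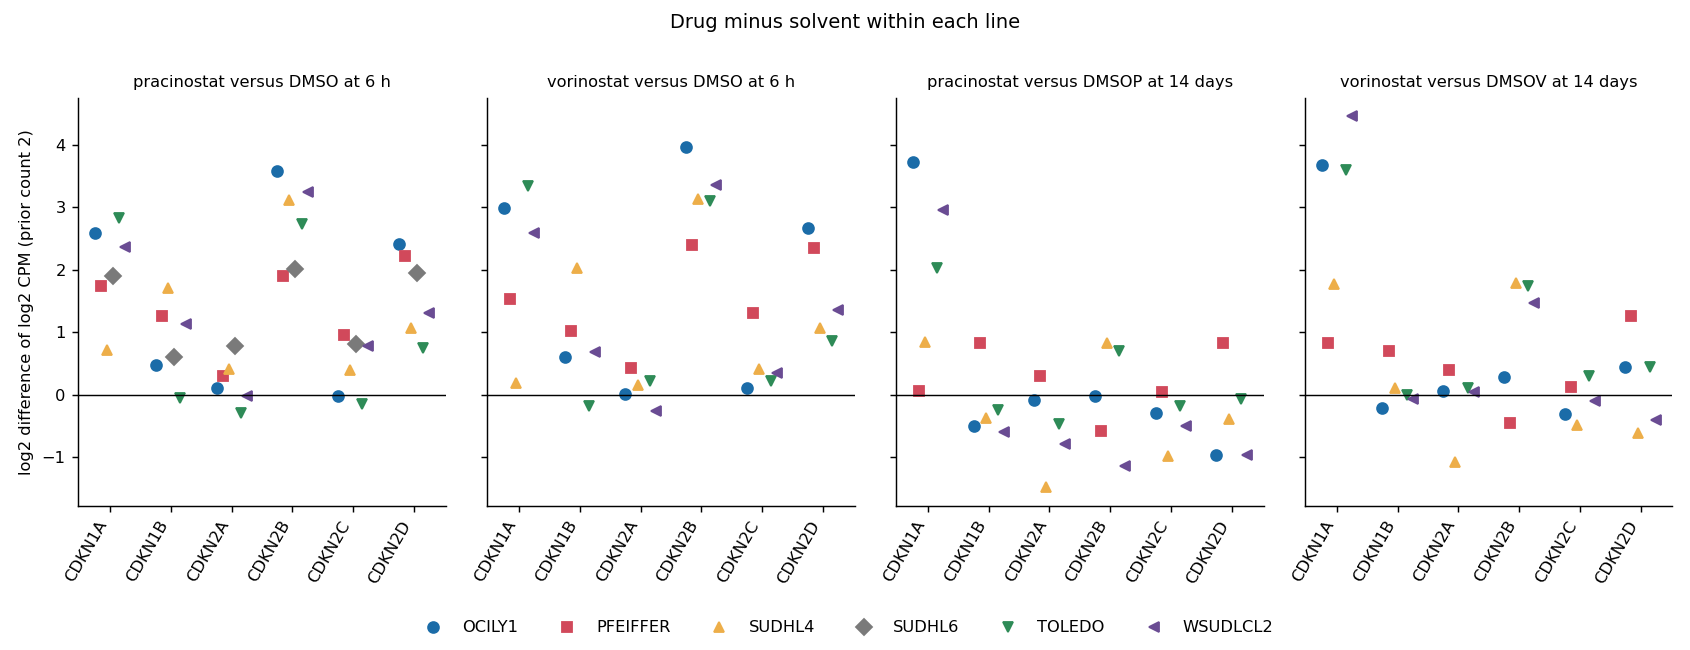
Drug minus solvent within each cell line, as the difference of log2 CPM with a prior count of 2, for the 6 tested genes in the 4 comparisons, with 1 symbol per line and a black line at 0. At 6 h every line lies above 0 for CDKN1A, CDKN2B and CDKN2D, and at 14 days every line does so for CDKN1A, from 0.05 to 3.72 with pracinostat and from 0.83 to 4.45 with vorinostat.

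Whether an effect differed between the times was tested directly, as an interaction term fitted over every library. CDKN2B had a log2 fold change lower at 14 days than at 6 h, by -3.07 with pracinostat (SE 0.52, adjusted p = 2.15e-04) and by -2.43 with vorinostat (SE 0.55, adjusted p = 0.00205). CDKN2D did likewise, by -1.93 (SE 0.38, adjusted p = 8.14e-04) and by -1.35 (SE 0.39, adjusted p = 0.0124). For CDKN2B the 6 h folds rest on few solvent counts, and the gene passed the 6 h count filter through the drug groups. CDKN1B (-0.96, SE 0.31, adjusted p = 0.0296) and CDKN2C (-0.80, SE 0.22, adjusted p = 0.0127) passed the test with pracinostat only, with values of -0.53 (SE 0.32, adjusted p = 0.249) and -0.56 (SE 0.23, adjusted p = 0.0793) with vorinostat. In all, 4 of the 6 genes were called with pracinostat and 2 of 6 with vorinostat, every one of them lower at 14 days, beside 19.4% and 23.4% of 15420 genes called and 9.83% and 12.2% called and lower. CDKN1A differed by 0.04 with pracinostat (95% interval -1.25 to 1.34, adjusted p = 0.974) and by 0.91 with vorinostat (-0.44 to 2.27, adjusted p = 0.346), and was not called. The pracinostat calls of CDKN1B and CDKN2C were lost without SUDHL4 (adjusted p = 0.0975 and 0.0663) or WSUDLCL2 (0.125 and 0.0655), and that of CDKN1B also without OCILY1 (0.0959). CDKN2D with vorinostat was lost without OCILY1 (adjusted p = 0.0529), without SUDHL4 (0.0507) and without the 3 libraries under 4 M counts (-1.03, adjusted p = 0.0712). Without the line as block, CDKN2B with pracinostat was the one call left (-2.87, adjusted p = 0.0491). CDKN2B with vorinostat then had -1.87 (adjusted p = 0.196), CDKN2D -1.68 with pracinostat and -1.43 with vorinostat (0.693 and 0.660), and the pracinostat calls of CDKN1B and CDKN2C were lost too (0.978 and 0.913).

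**Figure D4:**
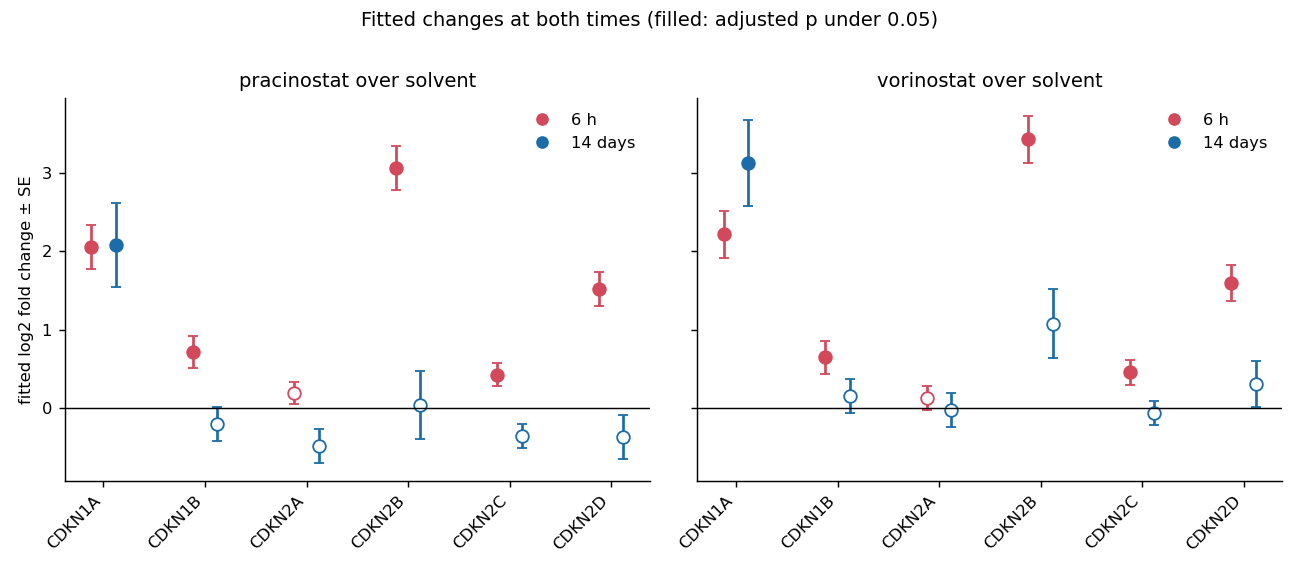
Fitted log2 fold change of each drug over its solvent with its standard error, at 6 h (red) and 14 days (blue), for the 6 tested genes; filled symbols passed an adjusted p under 0.05. CDKN1A stays high at both times (2.06 and 2.08 with pracinostat, 2.22 and 3.13 with vorinostat), while CDKN2B lies at 3.06 and 3.43 at 6 h and at 0.04 and 1.08 at 14 days.

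The solvent cultures themselves differed between the times. CDKN1B was higher in both 14-day solvent libraries than in the 6 h one in 5 of 5 lines, and so was CDKN2A, beside 6.70% of 14331 genes at a mean of 1 CPM or more. CDKN2B, CDKN2C and CDKN2D did so in 4 of 5 lines each, and CDKN1A in 1 of 5. Over the same 5 lines, without SUDHL6, CDKN1B averaged 55.8 CPM with DMSOP and 43.7 CPM with DMSOV at 14 days, against 29.0 CPM with DMSO at 6 h, while its pracinostat means were 44.8 CPM at 14 days and 40.0 CPM at 6 h. CDKN2B averaged 1.56 CPM with DMSOP and 1.25 CPM with DMSOV, against 0.576 CPM with DMSO at 6 h, and its pracinostat means were 1.68 CPM at 14 days and 6.89 CPM at 6 h. The mean pracinostat level was thus lower at 14 days than at 6 h for CDKN2B and not for CDKN1B. Time in culture and anything else that differed between the 6 h and the 14-day libraries cannot be told apart. Between the solvents DMSOP and DMSOV none of the 6 genes was called with edgeR, beside 0% of all genes. There 0 of the 6 had an unadjusted p under 0.05, and DESeq2 and limma called 0. The solvents' log2 differences ran from 0.13 for CDKN2C to 0.51 for CDKN1A.

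The kinases that the inhibitors bind and the genes around them gave different pictures at the 2 times. Of 12 tested genes of the G1 cyclins and CDKs, pracinostat raised 5 and lowered 2 at 6 h, while vorinostat raised 8 and lowered 2. Over all genes 18.9% with pracinostat and 20.9% with vorinostat were called and lower at 6 h, and 10.2% and 17.2% at 14 days. Called and higher were 21.2% and 23.1% of all genes at 6 h, and 12.3% and 20.4% at 14 days. CCND2, a D cyclin and so a partner of the kinases that INK4 proteins block, had a log2 fold change of 2.64 with pracinostat (SE 0.63, adjusted p = 0.00369) and 2.45 with vorinostat (SE 0.66, adjusted p = 0.00700) at 6 h, and 3.04 (SE 0.85, adjusted p = 0.0199) and 3.20 (SE 0.91, adjusted p = 0.0122) at 14 days. CCND2 was low, at a mean log2 CPM of 1.28 at 6 h and 1.92 at 14 days. CCND3, another D cyclin, lay at 7.12 and 6.79. It had 0.48 with pracinostat (adjusted p = 0.0564) and 0.59 with vorinostat (adjusted p = 0.0282) at 6 h. At 14 days CCND3 had -0.13 and 0.21, neither called. CDK4 fell at 6 h, by 0.39 with pracinostat (adjusted p = 0.0159) and by 0.42 with vorinostat (adjusted p = 0.0143) on the log2 scale. CDK6 had 0.23 and 0.19 at 6 h, neither called, and -0.47 with pracinostat (not called) and -0.91 with vorinostat (adjusted p = 0.0265) at 14 days. At 14 days pracinostat raised 1 of the 12 and lowered 2, and vorinostat raised 1 and lowered 3. Among those that fell were CCNA2, the S-phase cyclin, with -1.79 and -2.27, and CDC25A, the phosphatase that activates CDK2, with -1.66 and -1.82.

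In the list of retinoblastoma and E2F genes, more were called lower than higher at both times. Of 13 genes of the retinoblastoma and E2F families, 8 fell and 0 rose with pracinostat at 6 h, 8 fell and 1 rose with vorinostat at 6 h, 8 fell and 0 rose with pracinostat at 14 days, and 10 fell and 0 rose with vorinostat at 14 days. The one that rose was TFDP2, a partner of the E2F factors, with 0.76 on the log2 scale (adjusted p = 0.0226). Median log2 fold changes of the 13 genes were -0.43 and -0.51 at 6 h and -0.47 and -0.74 at 14 days. The share of all genes called and lower was 18.9% with pracinostat and 20.9% with vorinostat at 6 h. At 14 days it was 10.2% and 17.2%. E2F8, a repressive E2F that itself peaks in S phase, had -1.19 and -1.34 at 6 h and -1.63 and -2.53 at 14 days, in the order pracinostat and vorinostat. Of 9 genes that control the turnover of p21 and p27 proteins, pracinostat at 6 h raised 2 and lowered 3. Vorinostat at 6 h raised 3 and lowered 3. At 14 days 5 were lower with pracinostat and 7 with vorinostat, and 0 were higher with either. The share of all genes called and higher was 21.2% with pracinostat and 23.1% with vorinostat at 6 h. At 14 days it was 12.3% and 20.4%. DTL, the receptor of the ligase that destroys p21 in S phase, rose at 6 h by 0.59 and 0.71 on the log2 scale and had -1.65 and -2.02 at 14 days. Among the same 9 genes CUL4A fell at 6 h, with -0.95 (adjusted p = 1.84e-06) and -1.05 (adjusted p = 8.39e-07). CUL1 fell too, with -0.72 and -0.91, so the list moved in both directions at 6 h. SKP2, the receptor of the ligase for p27, had 0.12 and -0.03 at 6 h, neither called, and -0.64 with pracinostat (adjusted p = 0.106) and -0.99 with vorinostat (adjusted p = 0.0127) at 14 days.

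**Figure D5:**
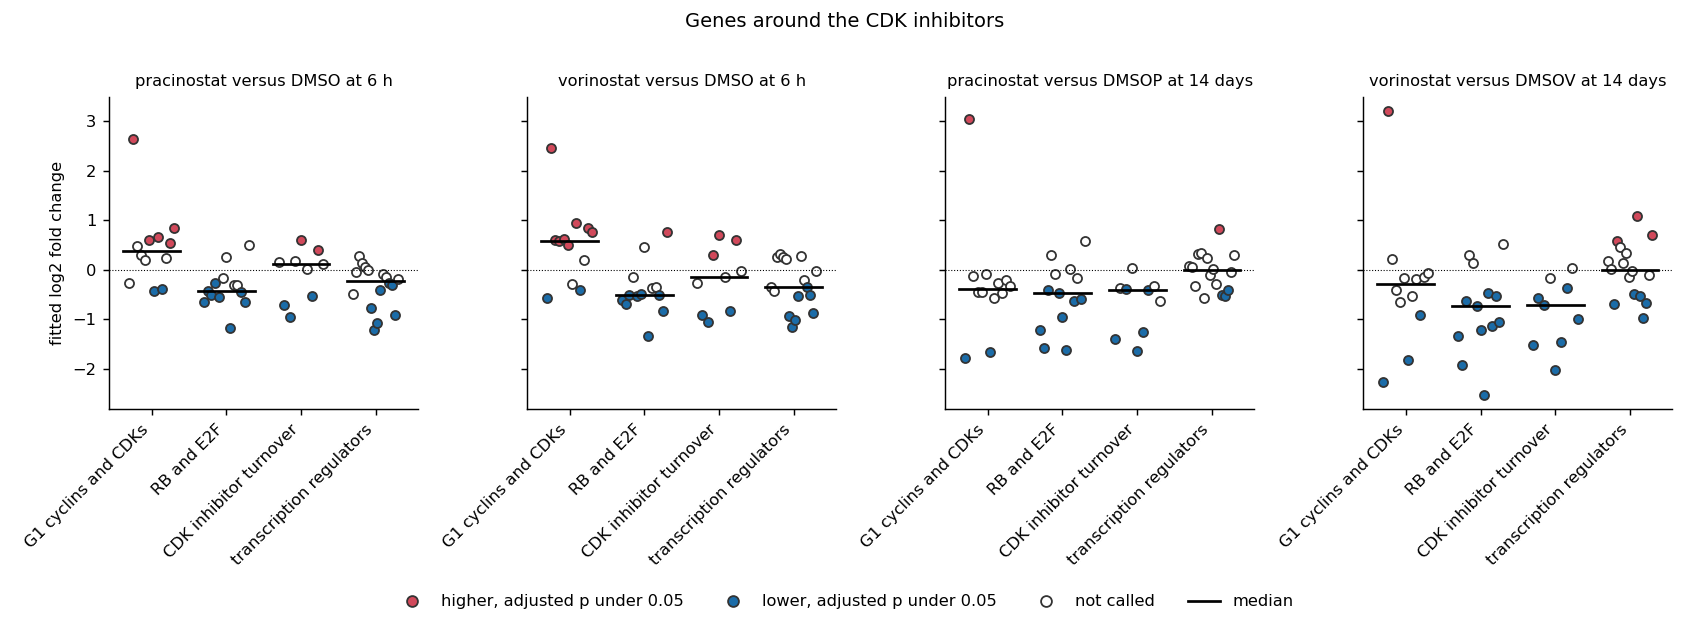
Fitted log2 fold changes of the tested members of 4 gene lists around the CDK inhibitors, in the 4 comparisons; red and blue symbols are called higher and lower, open symbols are not called, and black lines are list medians. The RB and E2F medians lie below 0 in all 4 comparisons (-0.43, -0.51, -0.47 and -0.74), while CCND2, the highest symbol among the cyclins and CDKs, lies between 2.45 and 3.20.

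Regulators known to act on transcription of the inhibitor genes mostly fell or did not pass. Of 16 tested, 7 fell and 0 rose at 6 h with each drug, 3 fell and 1 rose with pracinostat at 14 days, and 5 fell and 3 rose with vorinostat at 14 days. Over all genes 18.9% with pracinostat and 20.9% with vorinostat were called and lower at 6 h, with 10.2% and 17.2% at 14 days. Called and higher were 21.2% and 23.1% of all genes at 6 h, and 12.3% and 20.4% at 14 days. MDM2, a ubiquitin ligase gene, fell at 6 h by 0.78 and 0.93 and had 0.23 and 0.33 at 14 days, neither called. MYC, which represses CDKN1A and CDKN2B together with MIZ1, fell at 6 h by 1.07 with pracinostat and 1.01 with vorinostat and had 0.02 and -0.03 at 14 days, neither called. SP1, a factor that binds GC boxes such as those shown above, had -0.54 with pracinostat (adjusted p = 0.0160) and -0.97 with vorinostat (adjusted p = 2.05e-04) at 14 days, and SMAD3, which acts in TGF-beta signalling, rose by 0.82 and 1.09. Next to CDKN2A on chromosome 9, MTAP had -0.26 and -0.39 at 6 h (adjusted p = 0.159 and 0.0501) and fell at 14 days by 0.53 with pracinostat (adjusted p = 0.0215) and by 0.88 with vorinostat (adjusted p = 5.30e-04). CDKN2B-AS1 at 14 days had -0.24 (adjusted p = 0.898) and -0.90 (adjusted p = 0.140).

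Across the 37 libraries the 6 genes did not follow one another closely. Pearson's r of log2 CPM between pairs of them ran from -0.26 for CDKN2A and CDKN2D to 0.55 for CDKN1A and CDKN2B. Among 14330 genes the ones most like CDKN1A were ECHS1 (r = 0.80), CTSA (0.79) and NOVA2 (0.79). The pattern of CDKN1B was nearest to MAN1A1 (0.86), HSPB1 (0.86) and RDX (0.84), and that of CDKN2A to CBS (0.86), IGKV3-11 (0.84) and AL121839.2 (0.83). CDKN2B was nearest to PPARD (0.83), MAPK8IP1 (0.82) and CREB3 (0.79). CDKN2C was nearest to CHD7 (0.90), SNX30 (0.89) and FCGR2B (0.89), and CDKN2D to LIX1L (0.89), MLF2 (0.88) and SETD3 (0.88). These values describe libraries that share their lines, depth and treatments.

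Library totals ran from 3.19 to 8.92 M counts. All 6 B-cell markers were present in every library, and of these 5 fell with each drug at 6 h and 3 rose with each at 14 days. Over all genes 18.9% with pracinostat and 20.9% with vorinostat were called and lower at 6 h. Called and higher were 21.2% and 23.1% of all genes at 6 h, and 12.3% and 20.4% at 14 days. Of 12 markers of other cell types 10 were in the table. At 6 h 1 of 3 tested rose with each drug (COL1A1), and at 14 days 4 of 7 rose with pracinostat and 3 of 7 with vorinostat, ITGAM most. Their summed level ran from 3.11 to 743 CPM with pracinostat, 3.96 to 744 with vorinostat and 1.26 to 1470 with DMSO at 6 h, and from 14.0 to 855 with pracinostat, 0.811 to 1390 with DMSOP, 4.87 to 837 with vorinostat and 0.726 to 1430 with DMSOV at 14 days. CD3E, which defines T cells, reached at most 3.35 CPM and had 0 counts in at least 1 library of every group. The mitochondrial share of the counts at 14 days was 11.1% to 17.0% with pracinostat against 6.45% to 11.0% with DMSOP, and 10.5% to 17.5% with vorinostat against 6.76% to 12.0% with DMSOV. The shares at 14 days are given here per line and drug, each beside the CDKN1A log2 difference. OCILY1 had 17.0% with pracinostat against 10.6% with DMSOP, beside a CDKN1A log2 difference of 3.72. TOLEDO had 17.1% with vorinostat against 9.52% with DMSOV, beside 3.60. WSUDLCL2 had 12.5% with vorinostat, in a library of 3.42 M counts, against 12.0% with DMSOV, beside 4.45. PFEIFFER had 11.1% with pracinostat against 6.45% with DMSOP, beside 0.05. With pracinostat against DMSOP, SUDHL4 had 14.9% against 8.76% (0.84), TOLEDO 14.7% against 8.02% (2.03) and WSUDLCL2 14.1% against 11.0% (2.96). With vorinostat against DMSOV, OCILY1 had 16.5% against 12.0% (3.67) and PFEIFFER 10.5% against 6.76% (0.83). SUDHL4 had 17.5% with vorinostat, in a library of 3.19 M counts, against 10.9% with DMSOV (1.77). At 6 h the share was 5.30% to 10.2% with pracinostat and 5.43% to 11.8% with vorinostat, against 6.17% to 10.9% with DMSO. The part of these markers and shares in the results was not tested.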

How the data were processed

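Per the labels, Trizol-extracted RNA was made into Illumina TruSeq libraries. STAR, edgeR and the build hg38 are named in the submitters' processing notes, without versions. Neither the annotation nor a strand setting is given in the sources used here. The deposited raw table holds unscaled whole-number counts of 37 libraries, and the deposited normalized table holds log2 CPM, used in an alternative only. Its 6 h solvent columns end in V for some lines and P for others. A second sample labelled SUDHL4, vorinostat, 14 days, among the 38 in the series, could not be tied to a separate column and was not analysed here. No column of the tables was left unmapped.

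Genes were matched to GENCODE 29 on GRCh38 (17859 of 18011). The tests ran in R 4.3.3 on the counts, with the robust quasi-likelihood method of edgeR 4.0.16, TMM factors and filterByExpr at a minimum count of 10 and a minimum total of 15. The line was the block, and each time was fitted apart. Interactions came from all libraries together, blocked by line within time. Benjamini-Hochberg adjustment ran over all genes tested. The pipeline was tested on simulated data. Same-line libraries deviated together from their group means (r from 0.56 to 0.97 over group pairs), and the pairing comes from the line names in the labels. With no statement on separate cultures, p-values measure the spread between lines, library noise included. DESeq2 1.42.0, limma 3.58.1, other scalings, no filter, no block, other solvents and each line left out were alternatives.

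Named genes are the 7 inhibitors, a short set of MYC, MDM2, SKP2, cyclin, CDK and neighbouring genes (1 gene of the set is not reported here), the called list members with the largest rise or fall, and the 3 genes most alike. The genes and lists were chosen with earlier results of these data known. CDKN1A overlaps the gene DINOL and CDKN1B overlaps AC008115.3 in the annotation.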

Additional observations from a re-analysis of the deposited data

Results flagged for a closer look

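In sets of 5 or 6 libraries, or of 5 or 6 within-line differences, 7 of 78 had a value far from the rest by Dixon's test, where chance gives about 1 in 20. CDKN2A was high in OCILY1 with vorinostat at 6 h, at a log2 CPM of 6.08 where the next line had 4.60, and with DMSO at 6 h, at 6.07 where the next had 4.69. CDKN2B was high in SUDHL6 with DMSO at 6 h, at a log2 CPM of 1.62 where the next line had -0.03. CDKN2C was low in PFEIFFER with pracinostat at 6 h, at 5.24 where the next line had 6.18. Among the within-line log2 differences, CDKN1B with pracinostat over DMSOP at 14 days was 0.83 in PFEIFFER where the next line had -0.24. CDKN2C with vorinostat over DMSO at 6 h was 1.30 in PFEIFFER where the next line had 0.41. CDKN2A with vorinostat over DMSOV at 14 days was -1.08 in SUDHL4 where the next line had 0.04.

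The interaction test called drug effects that differed between 14 days and 6 h. With pracinostat these were CDKN2B (-3.07), CDKN2D (-1.93), CDKN1B (-0.96) and CDKN2C (-0.80), and with vorinostat CDKN2B (-2.43) and CDKN2D (-1.35), as log2 fold change at 14 days minus that at 6 h.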

How the results depend on the processing

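Of the values of single genes under the alternatives, 571 kept their direction and their side of the threshold, 34 lost a call, 5 gained one and 19 took the other sign, 0 of them with a call in either fit. These 19 belong to 7 values near 0 on the log2 scale. CDKN2B with pracinostat at 14 days (0.04) had -0.01 by library totals alone, -0.09 with limma on the deposited values and -0.23 to 0.28 with 1 line left out. CDKN1A in the pracinostat interaction (0.04) had -0.11 by library totals alone, -0.10 with limma, -0.19 without the 3 libraries under 4 M counts and -0.37 to 0.48 with 1 line left out. CDKN2A with vorinostat at 14 days (-0.02) had 0.00 with DESeq2, 0.17 without those 3 libraries and -0.11 to 0.15 with 1 line left out, and its vorinostat interaction (-0.18) had 0.05 without those libraries and -0.32 to 0.01 with 1 line left out. Between pracinostat and vorinostat at 6 h, CDKN1B (0.07) had -0.01 without the line as block and -0.01 to 0.18 with 1 line left out, and CDKN2C (-0.04) had -0.14 to 0.05. CDKN2C with vorinostat at 14 days (-0.06) had -0.18 to 0.01 with 1 line left out. For these changes of sign the cause was not tested. Without the line as a block, the paired design is given up, and 2 genes were called with pracinostat at 6 h, 2 with vorinostat at 6 h, 0 with pracinostat at 14 days, 1 in the pracinostat interaction and 0 in the vorinostat interaction, against 5, 5, 1, 4 and 2 with it. The 2 left at 6 h were CDKN1A and CDKN2B with each drug. Leaving out 1 line at a time gave 3 to 5 genes called with vorinostat at 6 h, 0 to 1 with pracinostat at 14 days, 1 to 2 with vorinostat at 14 days, 2 to 5 in the pracinostat interaction and 1 to 3 in the vorinostat interaction. Without the 3 libraries under 4 M counts, chosen after seeing the data, the vorinostat interaction called 1 gene. Scaling by library totals alone called 5 and 3 genes in the interactions, adding CDKN2A with pracinostat (-0.86, adjusted p = 0.0235) and CDKN2C with vorinostat (-0.73, adjusted p = 0.0163). CDKN2B in the solvent and CDKN1C in every line rest on few counts, which limits their folds.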
